A study of Mus musculus with 4 samples.

Results

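The OAS family of the mouse, 2′-5′ oligoadenylate synthetases and their relatives, was followed in myeloid-derived suppressor cells (MDSCs) with and without EGCG, the main catechin of green tea. Its members here were the 6 genes Oas1a, Oas1g, Oas2, Oas3, Oasl1 and Oasl2, taken by gene name from the 53465 genes counted, and all 6 were among the 14682 genes with enough reads to be tested. The family was chosen by measured values, the lower levels of Oas2 and Oasl2 with EGCG, so that its own fold changes between the groups describe these libraries and are not tested.

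MDSCs, which build up in hosts with tumors, are myeloid cells that have not matured. BALB/c mice carrying 4T1 cells, a transplantable mammary carcinoma line, gave spleen MDSCs that were pulled out with Gr-1 beads, which bind Ly-6G and Ly-6C. The cells then spent 6 h either in control medium (control group, 2 libraries) or in medium with 5 μg/mL EGCG (EGCG treatment group, 2 libraries). The sample labels place the sacrifice on day 21, whereas the study's methods give an earlier time for the sorting. All mice carried tumors and no healthy control was sequenced, and the labels do not give the mouse or culture behind each library, so p-values measure the spread between these libraries, which may be technical. Between 17767318 and 18390385 reads were counted on genes per library. Neutrophil markers dominated in sum, with S100a8 at a mean of 16310 CPM in the control group, and the summed markers of other cell types were far lower. Single markers lay closer together, such as Ly6g of neutrophils at 1017 CPM and Csf1r of monocytes at 615 CPM (control means). CPM stands for TMM-scaled counts relative to library size.

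OAS proteins are sensors of double-stranded RNA. On binding it they join ATP into short 2′-5′ linked oligoadenylates (2-5A), a second messenger of the antiviral response. Their genes are classical interferon-stimulated genes: type I interferon acts through its receptor, the kinases Jak1 and Tyk2 and transcription factors such as Stat2 and Irf9, which act at the interferon-stimulated response element (ISRE) in promoters. Oas1 proteins consist of a single synthetase unit, whereas Oas2 and Oas3 are built of repeated units. The OAS-like proteins end in ubiquitin-like domains. Among them, mouse Oasl2 makes oligoadenylates, while Oasl1 lacks this activity and is known as a translational brake on Irf7.

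All 6 members lie on chromosome 5 of GRCm38 in 2 clusters. Oasl2 (ENSMUSG00000029561, chr5:114896936-114912234) and Oasl1 (ENSMUSG00000041827, chr5:114923240-114937915) are neighbors on the plus strand. The other members are on the minus strand, namely Oas2 (ENSMUSG00000032690, chr5:120730333-120749853), Oas3 (ENSMUSG00000032661, chr5:120753098-120777661), Oas1g (ENSMUSG00000066861, chr5:120876142-120887613) and Oas1a (ENSMUSG00000052776, chr5:120896256-120907521).

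Promoter windows of 300 bases, from 250 before to 50 after the start of the RefSeq gene (GRCm38.p6), were at hand for 5 of the 6 members, all but Oas2. The core of the ISRE, searched on both strands as GAAA, any 2 bases and GAAA, was found in the windows of 3 of these 5, against 3.44% of all 32851 windows. The windows of these 3 genes and that of Oasl2, the member with the lowest log2 fold change, are printed 5′ to 3′ on the strand of the gene, and capitals mark the matches.
Oas1a (minus strand, chr5:120907476-120907775): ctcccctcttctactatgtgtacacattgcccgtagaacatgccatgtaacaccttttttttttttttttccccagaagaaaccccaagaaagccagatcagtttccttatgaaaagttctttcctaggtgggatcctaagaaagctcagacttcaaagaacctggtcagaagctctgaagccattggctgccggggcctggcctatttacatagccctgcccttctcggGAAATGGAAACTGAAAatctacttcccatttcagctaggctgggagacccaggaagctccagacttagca
Oas1g (minus strand, chr5:120887564-120887863): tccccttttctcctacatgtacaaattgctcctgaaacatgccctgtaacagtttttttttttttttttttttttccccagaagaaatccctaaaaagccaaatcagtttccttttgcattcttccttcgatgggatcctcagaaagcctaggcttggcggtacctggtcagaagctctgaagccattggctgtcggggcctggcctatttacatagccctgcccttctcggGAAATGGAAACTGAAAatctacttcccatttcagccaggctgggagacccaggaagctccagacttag
Oas3 (minus strand, chr5:120777610-120777909): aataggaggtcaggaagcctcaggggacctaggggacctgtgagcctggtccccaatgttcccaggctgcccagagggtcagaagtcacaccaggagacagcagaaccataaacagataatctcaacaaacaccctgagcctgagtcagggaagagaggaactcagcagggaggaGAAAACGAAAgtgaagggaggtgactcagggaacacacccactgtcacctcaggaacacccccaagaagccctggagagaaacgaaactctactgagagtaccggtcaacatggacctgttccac
Oasl2 (plus strand, chr5:114896684-114896983): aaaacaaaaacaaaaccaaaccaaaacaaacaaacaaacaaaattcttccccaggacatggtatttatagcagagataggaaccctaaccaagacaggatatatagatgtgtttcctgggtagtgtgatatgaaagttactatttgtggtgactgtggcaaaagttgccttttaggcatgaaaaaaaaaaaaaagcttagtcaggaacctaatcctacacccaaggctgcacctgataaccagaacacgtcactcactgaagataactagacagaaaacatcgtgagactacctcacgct
Oas1a and Oas1g each held an overlapping pair of matches, GAAATGGAAA and GAAACTGAAA, which began 20 and 14 bases before the start in Oas1a and 18 and 12 bases before it in Oas1g. In Oas3 a single match, GAAAACGAAA, began 75 bases before the start. The windows of Oas1a and Oas1g were identical at 261 of 306 aligned positions (85.3%), while every other pair among the 5 windows stayed between 42% and 48%. A match describes these letters only, and the windows of Oasl1 and Oasl2, which had none, say nothing about binding elsewhere. The STAT motif, TTC, any 3 bases and GAA, occurred in 1 of the 5 windows (Oas1a, TTCAAAGAA) against 8.3% of all windows, and the NF-κB motif, GGGA, any base and TTTCC, in 0 of the 5 against 0.411%. For comparison, 15 of 31 genes with a window in a list of other interferon-stimulated genes held the ISRE core in any of their windows. This share counts genes, whereas the 3.44% counts windows.

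Every member was expressed in every library, and the lowest count was the 371 reads of Oas1g in EGCG replicate 1. Per kilobase of exonic sequence, Oasl1 had the highest level, 76.1 ± 18.0 CPM per kb (SD over the 4 libraries). It was followed by Oas1a (37.1 ± 5.35 CPM per kb), Oas3 (36.1 ± 7.15), Oas2 (18.7 ± 3.63), Oas1g (10.9 ± 1.88) and Oasl2 (9.78 ± 2.41). Oasl1 stood higher than 95% of the 14666 tested genes with a known length, and Oasl2 higher than 68.9%. Compared within each library, Oasl1 was above Oas1a by 1.02 ± 0.13 log2 units (mean and SD, n = 4), Oas3 above Oas2 by 0.95 ± 0.13 and Oas2 above Oas1g by 0.78 ± 0.13, in 4 of 4 libraries each time. Oas1a and Oas3 did not differ beyond their spread (0.05 ± 0.08 log2 units, Oas1a higher in 3 of 4 libraries). Oas1g was above Oasl2 in 4 of 4 libraries, but by 0.17 ± 0.19 log2 units, with the lowest difference at 0.05. Oas3 held between 36.6% and 36.9% of the family's summed CPM in the 4 libraries, and Oasl1 between 26.3% and 30.3%. The share of Oas2 was 13.42% and 11.45% without EGCG against 12.32% and 10.96% with it, which overlap, and that of Oasl2 was 9.743% and 9.235% against 9.23% and 7.575%. The levels of Oas1a and Oas1g are uncertain, since 68.8% of the 31-base words in Oas1a transcripts and 55.1% of those in Oas1g also occur in other genes, nearly all in each other. Reads from such shared stretches could be split or lost. For Oas2, Oas3, Oasl1 and Oasl2 this share was between 0% and 2.27%.

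The question of the comparison is how EGCG changes transcripts of MDSCs. With EGCG, the log2 fold change was negative for all 6 members, from -0.57 (Oasl2) to -0.25 (Oas1a), with a median of -0.37, while the median over all tested genes was 0.0031 and 49.4% of them had a negative value. Both EGCG libraries were below both control libraries for 5 of the 6 members, compared with 21.2% of all tested genes. In edgeR (quasi-likelihood test, p-values adjusted by Benjamini and Hochberg over the whole table), 2 of the 6, Oas2 and Oasl2, had an adjusted p under 0.05, compared with 0.136% of tested genes called lower (20 genes) and 0.0136% called higher (2 genes). Both calls were lost in 3 of 10 alternatives, namely the one without a filter on low counts, upper-quartile scaling and the length correction (adjusted p of 0.055 to 0.562 in edgeR). Because these values chose the family, the shares stand side by side and nothing is read from them. In bulk RNA, fewer cells of a type and less RNA per cell cannot be told apart.

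**Figure D1:**
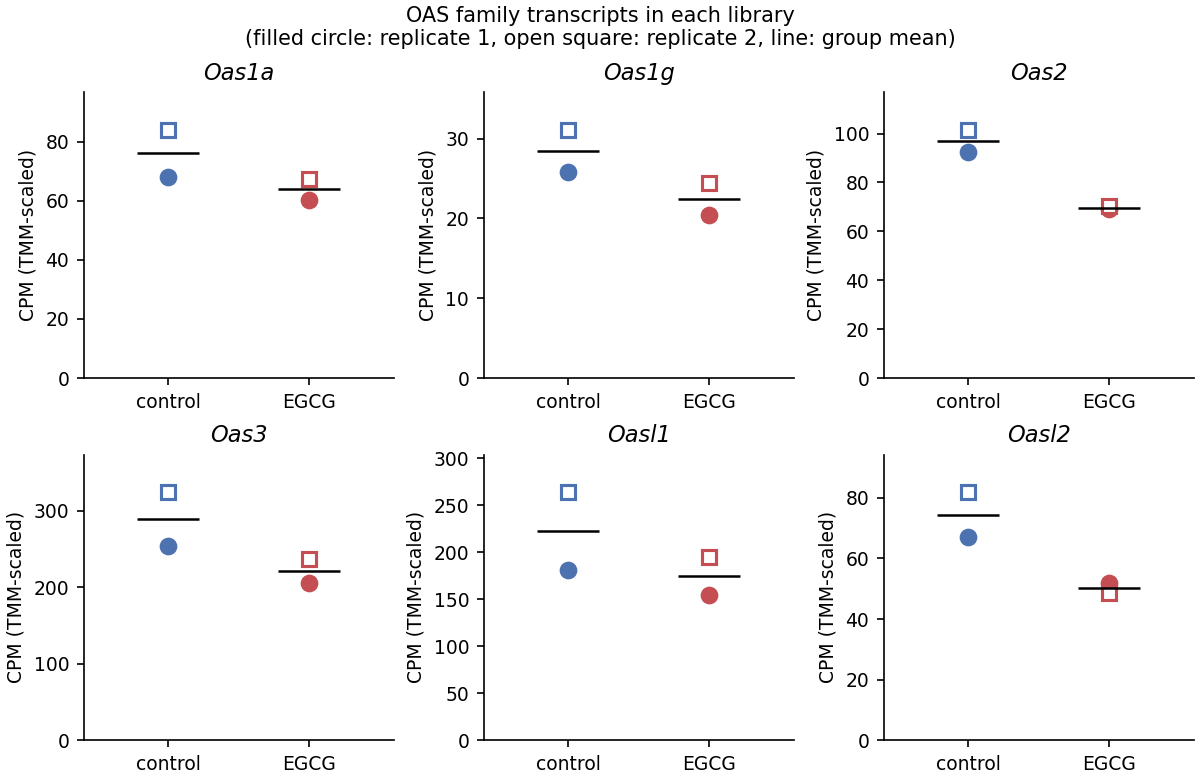
TMM-scaled CPM (vertical axis, from 0) of each OAS family member in the control and EGCG libraries. Filled circles are replicate 1, open squares replicate 2 and lines the group means; the groups overlap only for Oasl1, and control replicate 2 is the highest library in all 6 panels.

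Oas1a and Oas1g encode small synthetases of a single unit. Oas1a was at 68.0 and 84.1 CPM in control replicates 1 and 2 and at 60.2 and 67.5 CPM in EGCG replicates 1 and 2. The groups did not overlap, but EGCG replicate 2 nearly touched control replicate 1, and the log2 fold change of Oas1a was -0.25 (standard error 0.10). For Oas1g the levels were 25.8 and 31.1 CPM in the control libraries and 20.5 and 24.4 CPM in the EGCG libraries. Again the groups were apart by a narrow gap. The log2 fold change of Oas1g was -0.34 (standard error 0.12). The ratio of Oas1a to Oas1g ran from 2.635 to 2.94 over the 4 libraries, so this pair with shared sequence kept nearly the same proportion.

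Oas2, whose protein joins a pair of synthetase units, had 92.3 and 102 CPM in the control libraries and 69.1 and 70.4 CPM in the EGCG libraries. Its replicates lay closest together, and the gap between the groups was wider than the spread inside either of them. The group means were 97.0 ± 6.61 CPM (SD, n = 2) and 69.7 ± 0.898 CPM (SD, n = 2), which gave a log2 fold change of -0.48 (standard error 0.08). The adjusted p of 0.0390 in that edgeR fit is one of the values that chose the family.

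Oas3, the largest synthetase and the longest transcript of the family, had 253.5 and 324.8 CPM in the control libraries and 205.4 and 236.9 CPM in the EGCG libraries. Control replicate 2 stood well above the other libraries, while control replicate 1 and EGCG replicate 2 were near each other. The log2 fold change of Oas3 was -0.39 (standard error 0.11).

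Oasl1, the catalytically inactive member, was the only one whose groups overlapped. It had 181.0 and 264.1 CPM in the control libraries and 154.1 and 194.4 CPM in the EGCG libraries, so that EGCG replicate 2 exceeded control replicate 1. Its log2 fold change was -0.35 with the largest standard error of the family, 0.14. A short antisense gene, Gm13822, covers 38 of the 2608 exonic bases of Oasl1, and the counting ignored strand, though this is only 1.46% of its length.

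Oasl2, the OAS-like protein that does make oligoadenylates, had 67.0 and 82.0 CPM in the control libraries and 51.8 and 48.7 CPM in the EGCG libraries. It was the only member that was lower in EGCG replicate 2 than in EGCG replicate 1, and both EGCG libraries were clearly below both control libraries. Mean levels were 74.5 ± 10.6 CPM (SD, n = 2) and 50.2 ± 2.22 CPM (SD, n = 2). The log2 fold change of Oasl2 was -0.57 (standard error 0.10), and its adjusted p of 0.0420 by the same edgeR test also chose the family.

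The other members were not near the threshold of 0.05 in the same edgeR fit, with adjusted p of 0.171 (Oas3) to 0.344 (Oas1a).

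How far each fold change rests on a single library differed among the members. Without control replicate 2, the log2 fold change was -0.05 for Oasl1, -0.09 for Oas1a, -0.19 for Oas3 and -0.20 for Oas1g, but still -0.40 for Oas2 and -0.41 for Oasl2. Without control replicate 1 the values were lower, from -0.70 (Oasl2) to -0.39 (Oas1a). Leaving out EGCG replicate 1 gave -0.17 for Oas1a, -0.19 for Oasl1, -0.22 for Oas1g and -0.28 for Oas3, and leaving out EGCG replicate 2 gave -0.53 for Oasl1. All 6 members kept a negative value in each of these 4 fits, and 4 had an adjusted p under 0.05 (edgeR) without control replicate 1 (0.504% of all tested genes) or EGCG replicate 2 (1.64%), against 2 without control replicate 2 (2.31%) or EGCG replicate 1 (0.771%). With 3 libraries, the single sample of a group is assumed to vary like the pair in the other group.

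**Figure D2:**
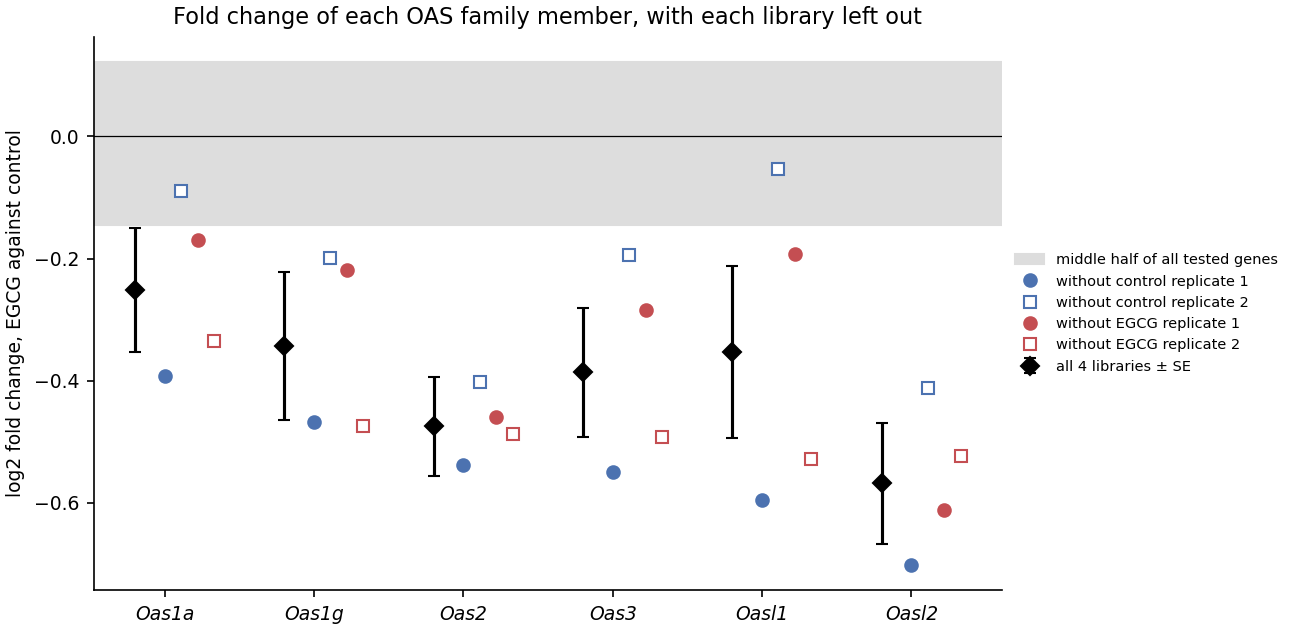
Log2 fold change of EGCG against control (vertical axis) for each OAS family member with all 4 libraries (diamonds, bars are 1 standard error) and with each library left out (circles and squares). The grey band is the interquartile range of all tested genes; Oas2 and Oasl2 stay below -0.40 in every fit, while Oasl1 ranges from -0.60 to -0.05.

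Libraries of the same group were also compared, although their spread enters the adjusted p that chose the family. Control replicate 2 was above control replicate 1 for all 6 members, by 0.14 (Oas2) to 0.55 (Oasl1) on the log2 CPM scale. Over all tested genes, 49.7% were higher in control replicate 2, and the interquartile range of the differences ran from -0.15 to 0.13. In the EGCG treatment group, replicate 2 was above replicate 1 for 5 of the 6 members, by up to 0.34 (Oasl1), while Oasl2 differed by -0.09. Over all tested genes, 51.3% were higher in EGCG replicate 2. Summed over the family, the level was 687.5 and 887.7 CPM in the control libraries and 561.1 and 642.3 CPM in the EGCG libraries. With 1 library on each side, these differences have no replicate check and no test.

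**Figure D3:**
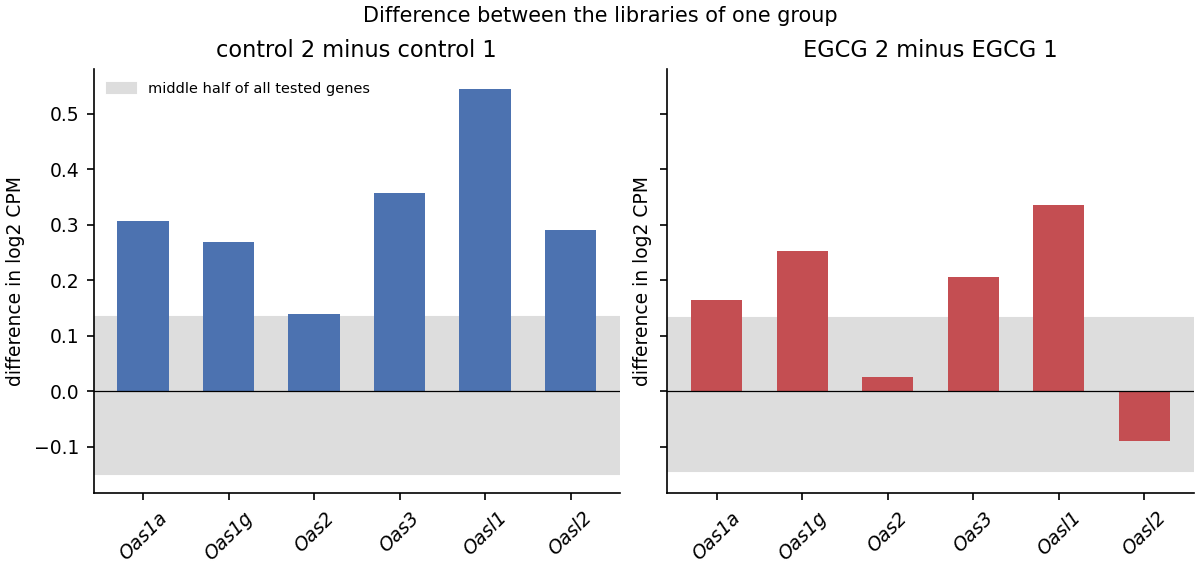
Difference in log2 CPM (vertical axis) between the libraries of 1 group for each OAS family member, in the control group (left) and the EGCG treatment group (right). The grey band is the interquartile range of all tested genes; Oasl1 has the largest difference in both groups, 0.55 and 0.34.

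Of the remaining OAS genes and others that act with 2-5A, 9 genes were listed and 5 were tested. In the same edgeR test none of these 5 was called, compared with 0.136% (lower) and 0.0136% (higher) of all tested genes. At an unadjusted p under 0.05 there were also 0, compared with 7.02% (lower) and 5.22% (higher) of all tested genes. DESeq2 gave an adjusted p to 3 of them and called 0. Their median log2 fold change was -0.13. It was -0.26 over 9 genes without the filter on low counts and -0.07 with a correction for transcript length. Oas1b, the flavivirus resistance gene, which the gene table lists as a polymorphic pseudogene, was at 15.2 ± 1.21 CPM in the control group and 12.6 ± 1.32 CPM in the EGCG treatment group (SD, n = 2 each), at a log2 fold change of -0.27 (standard error 0.13). Oas1c was at 9.92 ± 1.09 and 9.06 ± 0.411 CPM (SD, n = 2 each), at a log2 fold change of -0.13 (0.15), and 9.44% of its exonic bases overlap the antisense gene Gm43069. Without control replicate 2 Oas1c was at -0.01, and without control replicate 1 at -0.23. Oas1b was at -0.16 without EGCG replicate 2 and at -0.37 without EGCG replicate 1. Oas1d, Oas1e and Oas1f had counts of 0 in both EGCG libraries and at most 2 in a control library, and Oas1h had between 1 and 7 counts, so that no change could be seen at this depth, where a count of 0 allows up to 3 reads in a library. These silent or nearly silent copies lie in the same cluster as Oas1a and Oas1g.

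Pde12, which degrades oligoadenylates, had 512 and 496 counts without EGCG and 452 and 447 with it, at a log2 fold change of -0.16 (standard error 0.10). Abce1, a factor of ribosome recycling, was at -0.13 (0.09). With the length correction Pde12 was at -0.070 and Abce1 at -0.074. Both EGCG libraries were below both control libraries for Abce1, Pde12 and Oas1b, as for 21.2% of all tested genes. None of these passed the test. Part of Pde12 (6.82% of its exonic bases) overlaps Arf4 on the other strand.

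Upstream of the family, interferon transcripts were hardly present. Ifnb1 had 1 and 3 counts in the control libraries and 0 in both EGCG libraries, Ifna2 had 5 and Ifna4 had 2 counts in control replicate 2 alone, and Ifng had 1 count in that same library. Ifnk had 4 counts in control replicate 1 and 3 in EGCG replicate 2. The other 15 interferon genes had 0 counts in all libraries. These counts are too small to compare between libraries, and their relation to the levels of the family was not tested.
Receptors and signal carriers were well expressed. Over the 22 tested genes of this list the median log2 fold change was -0.04, with 13 negative and 9 positive values. By edgeR's quasi-likelihood test none was called (0 by DESeq2 as well, which gave an adjusted p to all 22), and at an unadjusted p under 0.05 there were 4 lower and 0 higher, compared with 7.02% and 5.22% of all tested genes. These 4 were Stat2, a transcription factor of the interferon response, at a log2 fold change of -0.31 (standard error 0.09, adjusted p of 0.221), Irf7, the amplifier of interferon expression, with -0.32 (0.12, 0.324), Jak2, a cytokine receptor kinase, with -0.21 (0.08, 0.332), and Usp18, which damps signaling at the interferon receptor, with -0.36 (0.16, 0.385). The receptor genes Ifnar1 and Ifnar2 were at -0.01 (0.08) and 0.07 (0.07), Jak1 at -0.0067 (0.08) and Irf9 at -0.14 (0.09). The median of this list was 0.01 without control replicate 2. The log2 fold changes were then 0.0089 for Usp18, -0.08 for Irf7, -0.12 for Jak2 and -0.19 for Stat2. Without control replicate 1, Irf7 was at -0.52 and Usp18 at -0.65, and without EGCG replicate 1 Irf7 was at -0.18. Without control replicate 1, 3 genes of the list were called (0.504% of all tested genes), and 1 without EGCG replicate 2 (1.64%).

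Other sensors of nucleic acids, most of them interferon-stimulated as well, had a median log2 fold change of -0.19 over 15 tested genes, with 13 negative values. None was called by edgeR's quasi-likelihood test (0 by DESeq2, which gave an adjusted p to 12 of them), though at an unadjusted p under 0.05 there were 6 lower and 0 higher, compared with 7.02% and 5.22% of all tested genes. Eif2ak2, the kinase PKR, which like OAS proteins is switched on by double-stranded RNA, was at 26.6 ± 2.95 CPM in the control group and 20.4 ± 0.217 CPM in the EGCG treatment group (SD, n = 2 each). Its log2 fold change was -0.38 (standard error 0.11, adjusted p of 0.199 in the edgeR test, from 0.0783 to 0.678 over 10 alternatives). Ifih1, which encodes MDA5, was at -0.34 (0.12), Tlr7, an endosomal sensor of single-stranded RNA, at -0.24 (0.09), and Adar, which edits double-stranded RNA, at -0.22 (0.08). Mavs, the adaptor of the cytosolic RNA sensors, was at 0.20 (0.18). Mb21d1 encodes cGAS, a DNA sensor with a fold related to that of the OAS proteins, and was at -0.22 (0.15). Without control replicate 2 the median of the sensors was -0.10, with Ifih1 at -0.09, and with the length correction the median was -0.12. Leaving out control replicate 1 put Ifih1 at -0.54, and 2 sensors were called (0.504% of all tested genes).

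A list of 41 further interferon-stimulated genes, which holds no OAS gene, gave a median log2 fold change of -0.29 over 40 tested genes, of which 39 were negative. By edgeR's quasi-likelihood test 1 was called lower and 0 higher, compared with 0.136% and 0.0136% of all tested genes, and at an unadjusted p under 0.05 there were 19 lower and 0 higher, compared with 7.02% and 5.22%. The called gene was Helz2, a helicase and nuclear receptor coactivator, at a log2 fold change of -0.60 (standard error 0.08, adjusted p of 0.0153 in the edgeR test, from 1.025e-05 to 0.525 over 10 alternatives). Next came Parp14, a mono-ADP-ribosyltransferase, at -0.45 (0.10, adjusted p of 0.0886, or 0.0346 with the replicate number as a block, 0.0101 with library size only and 0.0153 in DESeq2), and Trim30a, a regulator of inflammatory signaling, at -0.45 (0.12, 0.150). Xaf1, which promotes apoptosis, was at -0.58 (0.17, 0.218), and Mx2, a relative of antiviral GTPases that the gene table lists as a polymorphic pseudogene, at -0.76 (0.23, 0.224). The exception to the negative values was Ifit1bl2, named after its value was seen, at 0.20 (0.09). Of the 40, 15 had both EGCG libraries below both control libraries (37.5%, compared with 21.2% of all tested genes). In the control group, 36 of 40 were higher in replicate 2 (median difference of 0.39), compared with 49.7% of all tested genes. In the EGCG treatment group, 34 of 40 were higher in replicate 2 (median 0.25), compared with 51.3%. The list thus differed between libraries of 1 group in the same direction as the OAS family. Without control replicate 2 the median was -0.11 with 29 of 40 negative, Xaf1 was at -0.24, Trim30a at -0.19 and Parp14 at -0.29, and without EGCG replicate 1 the median was -0.17 and Mx2 was at -0.47. Leaving out control replicate 1 gave a median of -0.50, and leaving out EGCG replicate 2 gave -0.47.

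**Figure D4:**
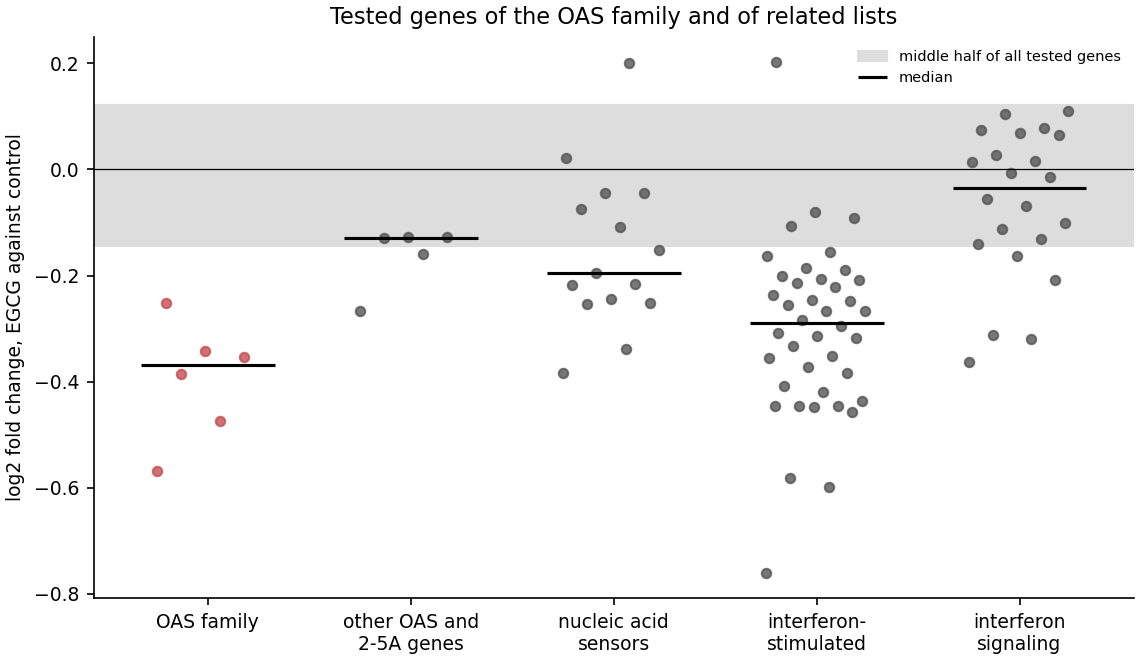
Log2 fold change of EGCG against control (vertical axis) for the tested genes of the OAS family and of 4 related lists (points), with list medians (black lines) and the interquartile range of all tested genes (grey band). The medians are -0.37 for the OAS family, -0.13 for other OAS and 2-5A genes, -0.19 for nucleic acid sensors, -0.29 for interferon-stimulated genes and -0.04 for interferon signaling.

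Genes were also ranked by how closely their levels followed the mean profile of the family over the 4 libraries, as the root mean square difference of centered log2 CPM. The nearest was Gbp9, an interferon-inducible GTPase on chromosome 5, with a difference of 0.011, where the median over all tested genes was 0.26. It was followed by the immunoglobulin light chain segment Igkj4 (0.024), by Parp14 (0.029), by the immunoglobulin segment Igkv10-94 (0.030) and by Wfs1 (0.032), which encodes a membrane protein of the endoplasmic reticulum. Among the members, Oas3 was closest to the family profile (0.025) and Oasl2 farthest (0.12). A likeness over 4 libraries is a description, and the adjusted p of these 5 genes in edgeR ran from 0.0886 (Parp14, called under the alternatives given above) to 0.656.

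Flanking genes had values of both signs. Below and above the Oasl pair, the nearest tested protein-coding genes were 4930519G04Rik, at a log2 fold change of -0.16 (standard error 0.45), and 2210016L21Rik, with 0.01 (0.15). Dtx1 and Rph3a, on the 2 sides of the Oas cluster, were at -0.01 (0.13) and 0.29 (0.40). One gene further out, 1500011B03Rik and Sppl3 beside the Oasl pair were at 0.24 (0.12) and 0.07 (0.08). Rasal1 and Ptpn11 beside the Oas cluster were at -0.53 (0.25) and -0.12 (0.07). Both EGCG libraries were above both control libraries for 1500011B03Rik and Sppl3, as for 21.5% of all tested genes. Both were below both control libraries for 4930519G04Rik, Rasal1 and Ptpn11, as for 21.2% of all tested genes. The groups overlapped for 2210016L21Rik, Dtx1 and Rph3a. None of these 8 was called in the edgeR fit (adjusted p from 0.415 to 0.980).

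Macrophage markers also had lower values with EGCG. All 8 macrophage markers had a negative log2 fold change (median -0.25), 4 of them at an unadjusted p under 0.05 (compared with 7.02% of all tested genes) and 0 called by edgeR, and Cd5l was the lowest at -0.59 (adjusted p of 0.107 in the edgeR test). Their summed level was 723.9 and 715.1 CPM in the control libraries and 563.3 and 645.6 CPM in the EGCG libraries. This sum was lower in both EGCG libraries than in both control libraries and lowest in EGCG replicate 1, whichever of the 8 markers was left out. The sum of the OAS family had the same order between groups, which is the contrast that chose the family. Within the control group the 2 sums differed. That of the OAS family was 687.5 CPM in replicate 1 and 887.7 CPM in replicate 2, while the macrophage sum was nearly level. Neutrophil markers, Ly6g among them, summed to 55630 and 67050 CPM in the control libraries and to 75780 and 66460 CPM in the EGCG libraries. Of these 9 markers, 6 had a positive log2 fold change. Monocyte markers summed to 1013 and 983.1 CPM in control and 927.6 and 931.3 CPM in EGCG libraries (5 of 6 lower), but without Csf1r the groups overlapped (381.7 and 384.8 against 392.1 and 353.6 CPM). Those of plasmacytoid dendritic cells, potent producers of interferon, summed to 91.5 and 86.7 CPM in control and 81.5 and 85.3 CPM in EGCG libraries (4 of 6 lower). Without Bst2, which is itself among the interferon-stimulated genes listed, these groups overlapped (68.3 and 61.0 against 64.1 and 60.1 CPM). Their defining markers Siglech and Ccr9, at most 2.10 CPM in a library, had log2 fold changes of 0.21 (0.33) and 0.13 (0.35). Conventional dendritic cell, B cell, T cell, NK cell and erythroid markers had medians between -0.10 and 0.17, none of them called. Of the 4 carcinoma markers, Krt19 had no counts. Epcam and Krt18, the 2 tested, were higher in both EGCG libraries, as were 21.5% of all tested genes (median log2 fold change of 0.60). Epcam, at most 5.54 CPM in a library, was at 0.63 (adjusted p of 0.235 in the edgeR test). The part of these cell types in the values of the OAS family was not tested.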

How the data were processed

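RNA from spleen-sorted MDSCs of 4T1 tumor-bearing mice was sequenced in 2 control and 2 EGCG libraries. Per the labels and the study's methods, the authors aligned reads to GRCm38 with STAR 2.6.0c, counted them per gene with featureCounts 1.6.2 using the annotation of Ensembl release 91, ignoring strand, and deposited the raw whole-number counts. The submitters' processing notes also name bcl2fastq 1.8.4 and FastQC. The file held 0 columns of other samples and 0 rows without a gene name.

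Genes were filtered with filterByExpr (minimum count of 10), scaled by TMM and compared in edgeR 4.0.16 (quasi-likelihood test, legacy form, no block), with Benjamini-Hochberg adjustment over 14682 genes and a threshold of 0.05. The standard error is the log2 fold change divided by the square root of F. Log2 CPM used a prior count of 2. An exact permutation test of a single gene cannot go below 0.333 (two-sided) with 2 libraries a group and was not run. The test and the length correction (loess with a span of 0.4 on log exonic length, as an offset) were first tested on simulated data. The members, lists and motifs were chosen with earlier results of these data known. The genes named are the 6 members, the other OAS and 2-5A genes, the called and up to 4 further genes with the smallest p of each other list, and the 5 genes nearest in pattern. Marker, flanking and receptor genes are named beside these as context.

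GENCODE M21 (GRCm38) gave positions and exonic lengths. Of the 53465 identifiers 53360 matched, and a length was missing for 16 tested genes. Promoter windows came from RefSeq (GRCm38.p6) and were aligned with Biopython 1.88. Other tools were R 4.3.3, DESeq2 1.42.0, Python 3.11.15, pandas 2.3.3, NumPy 2.4.6 and matplotlib 3.10.9. The alternatives were other filters, scalings and tests, a replicate block, the length correction and leaving out each library. The study's microarray comparison and qRT-PCR values were not used here. Some genes of the lists enter their counts and medians but are not reported here by name.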

Additional observations from a re-analysis of the deposited data

How the results depend on the processing

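All 6 OAS members kept a negative log2 fold change under the 10 alternatives and with each library left out. Oas2 and Oasl2 were each called in 7 of the 10 alternatives and not without a filter (adjusted p of 0.562 for both), with upper-quartile scaling (0.0550 and 0.0592) or with the length correction (0.0666 for both), and their adjusted p ran from 0.00269 and 0.00245 to 0.562. Library size only added Oas3 (adjusted p of 0.0278 in edgeR). DESeq2 gave an adjusted p to only 6427 of the 14682 tested genes and to 28 of the 40 interferon-stimulated genes. Its counts of called genes therefore cover fewer genes than those of edgeR. The genes called lower over the whole table, 20 in all, were 0 without a filter (1018 at an unadjusted p under 0.05), 135 with library size only, 9 with upper-quartile scaling, 54 with DESeq2, 49 with the robust fit and 3 with the length correction, and from 72 to 235 with a library left out. The 2 called higher became 0 without a filter (777 at an unadjusted p under 0.05), 4 with at least 10 counts in every library, 16 with library size only, 14 with DESeq2 and with the robust fit, 6 with the newer fit and 6 with the replicate block, and from 5 to 119 with a library left out. Of the interferon-stimulated genes, 0 were called without a filter and with the length correction, 3 with library size only and with the replicate block, 2 with DESeq2, and from 1 to 20 with a library left out. Called genes ran from 0 to 3 for interferon signaling and from 0 to 2 for sensors with a library left out. The median of the interferon signaling list turned to 0.0064 with the length correction, and to 0.0119 and 0.0096 without control replicate 2 or EGCG replicate 1 (-0.062 without EGCG replicate 2). Usp18 ran from -0.65 without control replicate 1 to 0.0089 without control replicate 2. The median of the other OAS and 2-5A genes was -0.26 without a filter and -0.07 with the length correction, and that of the sensors -0.12 with the length correction and -0.10 without control replicate 2. The cause of these shifts was not tested. Replicate numbers are shared between the groups, and over all genes same-numbered libraries hardly deviated together (correlation of 0.0336). Most members and most of the listed interferon-stimulated genes were nevertheless higher in replicate 2 of both groups. With the replicate block 24 genes were called lower, Oas2 and Oasl2 among them. The block lowered the standard error of Oasl1 from 0.140 to 0.075 and that of Oas3 from 0.106 to 0.071. Their adjusted p in this edgeR fit was 0.0951 and 0.0551. The median over all genes moved to -0.03 with library size only and to 0.03 with the length correction. Depth limits what can be said of Oas1d, Oas1e, Oas1f, Oas1h and the interferon genes.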
